A study of Homo sapiens with 9 samples.

Results

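Chromosome 19 carries the densest collection of zinc finger genes in the human genome, and 202 of them were measured here in keratinocytes. The genes are protein-coding, have symbols that start with ZNF, lie on chromosome 19, and were chosen by their level: at least 1 CPM (a gene's count divided by the library's total, times 1e6) in 3 or more of 9 libraries. They are 202 of 251 such genes on the chromosome and of 60671 genes listed in all. Of the 49 genes below that level, 23 had no count in any library, and none of the 49 entered the tests. All 202 members were tested, so no member was lost to a filter, and 172 of them reached 1 CPM in all 9 libraries. No member reached 1 CPM in the libraries of a single group alone, and every member had at least 9 counts in each group. Just inside the threshold, ZNF223, ZNF429, ZNF497 and ZNF547 reached 1 CPM in exactly 3 libraries, with a third-highest value of 1.25, 1.42, 1.30 and 1.71 CPM. Just outside it, ZNF57 reached 1 CPM in 2 libraries, and its third-highest value was 0.531 CPM.

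The products of these genes are C2H2 zinc finger proteins, in which each finger is folded around a zinc ion by 2 cysteines and 2 histidines and reads a few bases of DNA. Most also carry a KRAB domain near the N terminus, which recruits the corepressor TRIM28 and, through it, the histone methyltransferase SETDB1 and HP1 proteins that form heterochromatin. The family grew by tandem duplication, lies in clusters and is best known for silencing transposable elements. Individual members have also been described as regulators of stress and growth genes.

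The libraries were poly-A RNA of N/TERT cells, human epidermal keratinocytes immortalised with telomerase, in 3 groups of 3 libraries. KO cells carried a CRISPR knockout of SGPL1, OE cells overexpressed SGPL1, and Control cells were wild type for it. SGPL1 encodes the lyase that breaks down sphingosine-1-phosphate irreversibly, and its loss in people is associated with ichthyosis. All groups share the N/TERT background, no treatment was given, and the number of clones behind a group is a detail not given in the sources used here, so p-values measure the spread between these libraries. Library totals ran from 6317564 counts (KO 3) to 13330479 counts (OE 3). SGPL1 averaged 59.6 ± 1.75 CPM in KO libraries, 1055 ± 110.1 CPM in OE libraries and 92.5 ± 7.55 CPM in Control libraries (SD, n = 3 each). It fell in KO cells against Control cells (log2 fold change -0.64 ± 0.09 SE, adjusted p = 5.14e-06) and rose in OE cells (3.51 ± 0.09 SE, adjusted p = 4.90e-18). Adjusted p-values here and later are those of the quasi-likelihood test in edgeR, adjusted by Benjamini and Hochberg's method over 13390 genes, and "rose" or "fell" means an adjusted p below 0.05. All 10 keratinocyte markers had counts in these libraries. Their sum was 16249 to 17926 CPM in KO, 24872 to 26486 CPM in OE and 24703 to 24965 CPM in Control libraries. The lower KO sum lay mostly with KRT5 and KRT14. KRT5 averaged 5849.8 CPM in KO and 11016.5 CPM in Control libraries, and KRT14 2928.7 and 5453.1 CPM. Over Control, DSG3, DSC3, ITGA6, ITGB4 and SFN also fell in KO cells, TP63 and PERP rose, and KRT15 passed in neither direction. Of the markers of other cell types, 2 of 8 for fibroblasts, 3 of 7 for melanocytes, 2 of 5 for endothelium and 5 of 6 for immune cells were at 0 in every library. Summed fibroblast markers lay at 8.46 to 15.1 CPM in KO, 24.5 to 28.4 CPM in OE and 21.7 to 28.3 CPM in Control libraries. That sum was mostly COL1A1, which averaged 11.2 CPM in KO, 26.0 CPM in OE and 25.6 CPM in Control libraries. The melanocyte sum was mostly MITF, which averaged 71.1 CPM in KO, 62.5 CPM in OE and 94.0 CPM in Control libraries. Sums that rest on a single gene do not measure the share of a cell type. The part of all these marker differences in the results below was not tested.

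The members share features that the level rule did not use. In the translated coding sequences, 201 members had a readable reading frame, with a median of 13 C2H2 matches and a range of 0 to 32, and 156 had a match to the KRAB A box. Their transcripts were poor in G and C, with a median of 42.5% over each gene's longest annotated transcript against 48.1% for all genes tested. Their median exon length was 5490 bases against 5038.5 bases. The promoters looked different from the transcripts. RefSeq windows of 300 bases, from 250 bases before to 50 bases after a gene's start on GRCh38.p14, were matched by symbol for 183 of the 202 members. They held a median of 21 CG dinucleotides, against 14 over all 27303 windows, and only 1 of the 183 (0.546%) had under 5, against 30.5% of all windows. The set of all windows was not limited by expression level or gene type, whereas the members were. The part of that choice in the differences between member windows and all windows was not tested. On either strand, CCGGAAG, a core motif of ETS factors, was present in 46.4% of the member windows and in 10.7% of all windows. TATAAA was present in 2.19% and 11.95%, CCAAT in 50.8% and 35.7%, and GGGCGG in 63.9% and 44.6%, in the same order. These motifs were searched letter by letter and can overlap with each other, and a match is a description of the letters, not of binding. CCGGAAG was present in 15 of 30 windows of members higher in KO cells than in Control cells and in 13 of 23 windows of members lower.

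The windows of 4 members that the results below turn on are given 5′ to 3′ on the strand of the gene, with CG dinucleotides in capitals. ZNF614 and ZNF701 lie in the cluster in which most called members were higher in KO cells, whereas ZNF431 and ZNF8 were among the members with the largest falls. The windows are ZNF614 at chr19:52028330-52028629 (minus strand), ZNF701 at chr19:52570037-52570336 (plus strand), ZNF431 at chr19:21141790-21142089 (plus strand) and ZNF8 at chr19:58278705-58279004 (plus strand).
ZNF614: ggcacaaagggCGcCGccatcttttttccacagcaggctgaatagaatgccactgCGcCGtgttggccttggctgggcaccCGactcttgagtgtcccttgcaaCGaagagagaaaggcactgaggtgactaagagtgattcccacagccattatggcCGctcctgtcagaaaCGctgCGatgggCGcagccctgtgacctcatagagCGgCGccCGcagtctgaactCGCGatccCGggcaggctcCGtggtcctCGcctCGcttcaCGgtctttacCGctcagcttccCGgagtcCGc
ZNF701: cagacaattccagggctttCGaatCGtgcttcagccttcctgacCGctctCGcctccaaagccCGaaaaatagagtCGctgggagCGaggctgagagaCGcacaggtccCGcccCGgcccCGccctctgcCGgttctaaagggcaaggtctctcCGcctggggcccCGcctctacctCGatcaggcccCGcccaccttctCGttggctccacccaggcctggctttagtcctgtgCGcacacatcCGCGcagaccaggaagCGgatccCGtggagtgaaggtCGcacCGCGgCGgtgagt
ZNF431: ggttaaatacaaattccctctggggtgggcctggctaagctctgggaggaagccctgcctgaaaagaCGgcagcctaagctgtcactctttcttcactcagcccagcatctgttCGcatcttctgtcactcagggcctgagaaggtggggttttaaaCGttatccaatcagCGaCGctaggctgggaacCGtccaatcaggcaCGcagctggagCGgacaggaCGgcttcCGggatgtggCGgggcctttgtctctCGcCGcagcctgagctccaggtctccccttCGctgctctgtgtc
ZNF8: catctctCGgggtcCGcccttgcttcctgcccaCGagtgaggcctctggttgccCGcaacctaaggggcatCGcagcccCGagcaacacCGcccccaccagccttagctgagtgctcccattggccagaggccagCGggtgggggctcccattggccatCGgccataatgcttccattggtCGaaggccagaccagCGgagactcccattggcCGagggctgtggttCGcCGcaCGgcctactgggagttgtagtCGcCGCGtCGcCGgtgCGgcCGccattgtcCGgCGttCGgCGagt
The ZNF614 window held 23 CG dinucleotides, those of ZNF701 and ZNF8 held 26 each, and that of ZNF431 held 14. Of these 4 windows, that of ZNF431 held CCGGAAG, read on the opposite strand as cttcCGg.

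As a family the members were expressed at low levels. They took 0.190% ± 0.00645 of all counts in KO libraries, 0.188% ± 0.00522 in OE libraries and 0.196% ± 0.00203 in Control libraries (SD, n = 3 each). With TMM scaling (edgeR's factors for library composition), which all CPM values below use, their summed level had another order: 1935 to 2064 CPM in KO libraries, 1765 to 1851 CPM in OE libraries and 1897 to 1926 CPM in Control libraries. The groups did not overlap on the scaled values, whereas as shares of counts the KO libraries overlapped with both other groups. The median member averaged 5.99 CPM over all libraries, against 25.4 CPM for all genes tested. Per kilobase of exon, ZNF581 (chromosome 19, 55635459 to 55645623) had the highest level at 23.6 CPM per kb, followed by ZNF146 (36214602 to 36238774) at 19.4 and ZNF561 (9604680 to 9621236) at 12.1. The median member had 1.10 CPM per kb. ZNF146, also called OZF, is an unusual member whose protein consists of fingers alone: 10 C2H2 matches and no KRAB match were found. In bulk RNA, fewer cells that express a gene and less RNA per cell cannot be told apart, here and in all results below. The counting command set no option for strand, and 70 members shared over 10% of their exon bases or of their 50-base runs with another gene, so reads of close copies are uncertain.

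KO cells differed from Control cells at 59 members, 36 of which rose and 23 of which fell. That is 17.8% and 11.4% of the members, below the 26.0% and 25.9% of all genes tested that rose and fell. The median log2 fold change of the members was 0.11, against -0.00465 for all genes tested. Among genes under 45% GC, the median was 0.13 for the 140 members and 0.13 for all 5076 genes tested. With the trends over exon length and GC content removed, as described below, the medians were 0.04 for the members and 0.03 for all genes. In 43 members every KO library lay above every Control library (30.0% of all genes did), and in 38 members every KO library lay below (29.4% of all genes). Calls were more frequent at higher levels: among the 65 members with at least 10 CPM, 16 rose and 12 fell (24.6% and 18.5%), against 31.4% and 30.9% of the 9267 genes of that level. Among the 54 members at 5 to 10 CPM, 8 rose and 8 fell (14.8% each), against 20.1% and 18.6% of all such genes. Among the 83 members under 5 CPM, 12 rose and 3 fell (14.5% and 3.61%), against 11.2% and 12.8% of the 2797 genes of that level. Under 5 CPM the share of rises was thus above that of all genes, a difference that was not tested. It did not remain with the length and GC trends removed. Of these members 5 then rose and 8 fell (6.02% and 9.64%), against 8.26% and 12.8% of all genes of that level. Zinc finger genes of other chromosomes, selected on the same level, showed the reverse of the balance of the members as a whole. Of 221 tested, 16 rose and 71 fell in KO cells, with a median of -0.20. Among 673 other protein-coding genes of chromosome 19, 147 rose and 190 fell, with a median of -0.06. The difference between these sets was not tested.

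**Figure D1:**
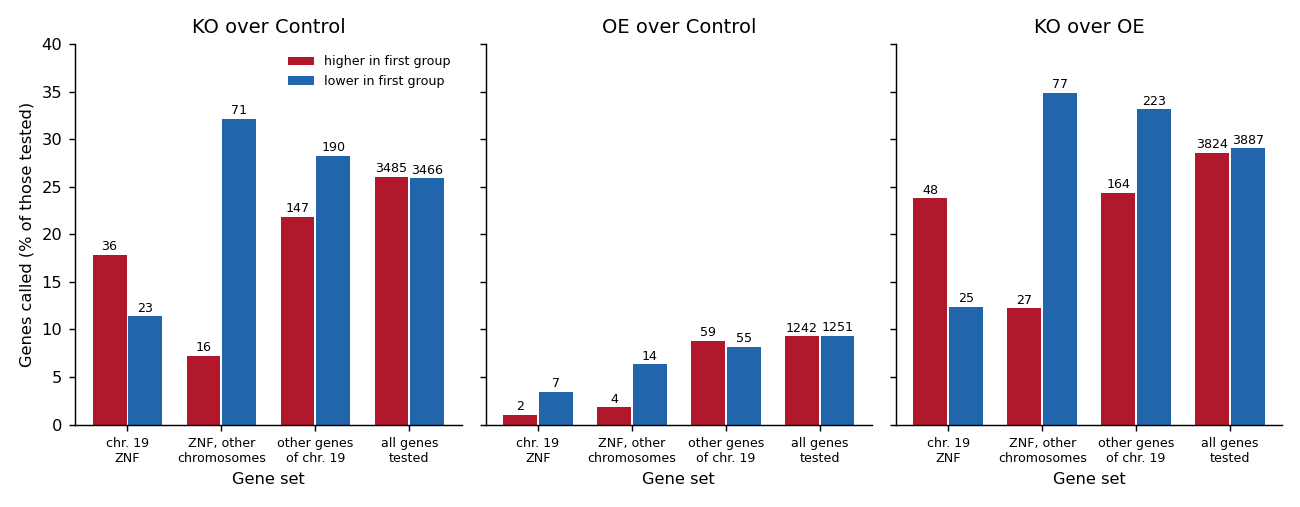
Share of genes called higher (red) or lower (blue) in the first-named group, as percent of genes tested, for the 3 comparisons; numbers above the bars are genes. In both comparisons with KO cells the chromosome 19 ZNF genes have more higher than lower calls (36 and 23, then 48 and 25), whereas ZNF genes of other chromosomes have the reverse (16 and 71, then 27 and 77).

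ZNF559, a KRAB member with 9 finger matches (9323772 to 9351162), had the largest rise among those named. It had 4.34, 5.94 and 5.07 CPM in KO, 1.77, 1.92 and 0.948 CPM in OE and 0.437, 1.90 and 1.80 CPM in Control libraries. All KO libraries lay above all others, and the OE and Control libraries overlapped. The log2 fold change was 1.88 ± 0.45 (SE, adjusted p = 0.00125) over Control and 1.75 ± 0.44 (adjusted p = 0.00167) over OE. ZNF420, known as Apak and described as a negative regulator of p53, had 6.39, 6.84 and 7.78 CPM in KO, 3.21, 2.92 and 2.92 CPM in OE and 0.982, 2.74 and 4.04 CPM in Control libraries. Every KO library was again above the rest, and the log2 fold change over Control was 1.43 ± 0.36 (adjusted p = 0.00182). ZNF583 had 6.51, 2.13 and 4.397 CPM in KO against 1.64, 1.26 and 1.35 CPM in Control libraries, a log2 fold change of 1.60 ± 0.45 (adjusted p = 0.0046). The KO libraries were spread, and without KO 1 the call was lost (log2 fold change 1.16, adjusted p = 0.0693). ZNF442 had 2.29, 2.69 and 3.04 CPM in KO against 0.873, 1.47 and 0.449 CPM in Control libraries (log2 fold change 1.49, adjusted p = 0.0141), and was not called without Control 3 (adjusted p = 0.0834). ZNF222 reached 1.57, 3.14 and 5.07 CPM in KO against 1.31, 1.26 and 0.899 CPM in Control libraries (log2 fold change 1.45, adjusted p = 0.022), a call that any of 4 left-out libraries ended, among them KO 3 (adjusted p = 0.16) and Control 3 (adjusted p = 0.0879).

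ZNF431 (21142024 to 21196053) was the clearest fall. This KRAB gene has 12 finger matches and, at 14132 bases, the longest exon sequence of all members. It had 32.3, 40.3 and 47.3 CPM in KO, 105.1, 97.2 and 87.3 CPM in OE and 98.2, 102.5 and 100.1 CPM in Control libraries. KO libraries lay far below both other groups, which overlapped. The fall was 2.53-fold, with a log2 fold change of -1.34 ± 0.11 (SE, adjusted p = 1.69e-09), and it remained at -1.11 (adjusted p = 5.41e-10) once the length and GC trends were removed, as described below. ZNF66, in the same cluster, had 1.08, 0.449 and 0.676 CPM in KO against 2.95, 2.21 and 2.92 CPM in Control libraries (log2 fold change -1.85 ± 0.54, adjusted p = 0.0063). ZNF8 had 3.25, 3.25 and 3.04 CPM in KO against 6.003, 8.43 and 6.85 CPM in Control libraries (-1.15 ± 0.29, adjusted p = 0.00201). In both genes the KO libraries lay below every Control library. ZNF793 (-1.01), ZNF814 (-0.99) and ZNF585B (-0.94) also fell, with adjusted p-values of 0.00272, 0.00247 and 0.00132. ZNF814 shares 27.0% of its 50-base runs and ZNF585B 26.6% with other genes, so their counts are uncertain.

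**Figure D2:**
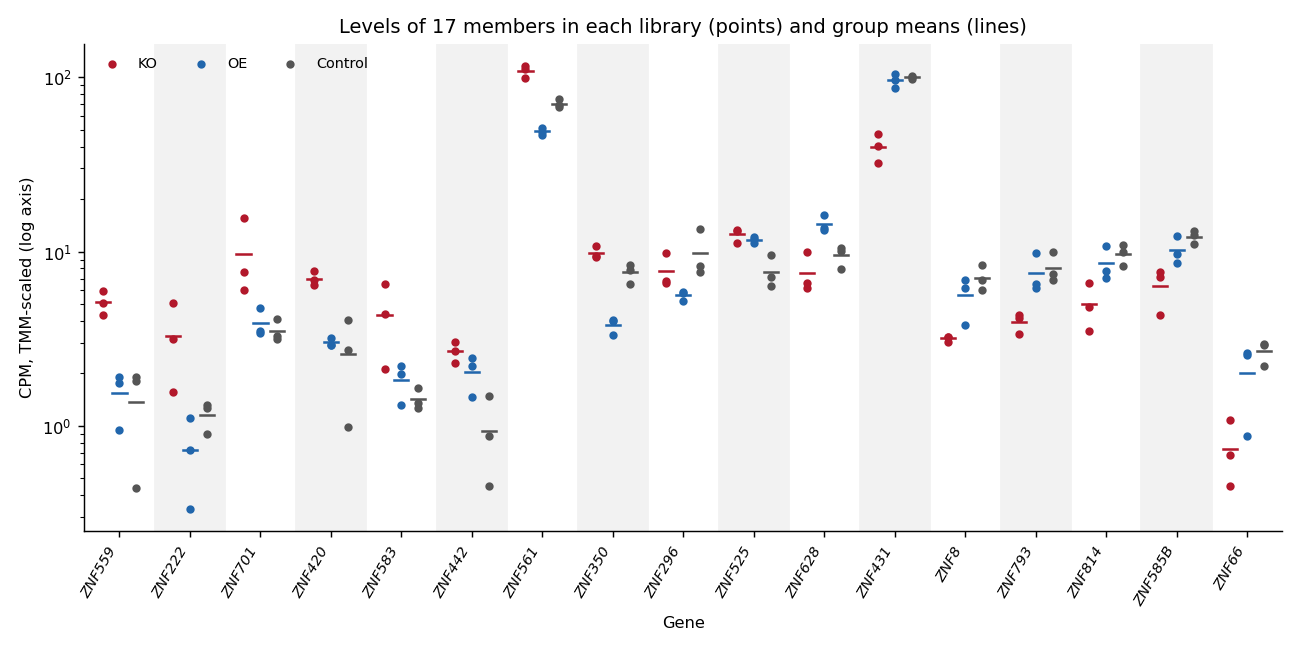
TMM-scaled CPM (log axis) of 17 named members in each library; points are libraries, lines group means, and KO, OE and Control stand side by side for each gene. ZNF559 stands higher in KO than in both other groups, ZNF431 lower, and ZNF561 is ordered KO, Control, OE without overlap.

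The members were next grouped by position along the chromosome. Clusters were formed wherever no gap of more than 1 Mb separated consecutive ZNF genes, which gave 8 clusters with 5 or more members and 11 members outside them. In the cluster from ZNF175 to ZNF331 (51571283 to 53580269), which holds 34 members of 40 ZNF genes, 12 members rose and 1 fell in KO cells. These are 35.3% and 2.94% of its members, against the 26.0% and 25.9% of all genes given above. The cluster is described first because its share of rises was the highest of the 8, and differences between clusters were not tested. The fold change was above 0 in 27 of the 34, with a median of 0.35. The median distance from the Control mean on the log2 scale was 0.28, 0.38 and 0.60 in the KO libraries, 0.05, 0.08 and -0.03 in the OE libraries and 0.10, -0.07 and -0.05 in the Control libraries. KO libraries were thus all above the others, while OE and Control libraries overlapped. With each library left out in turn, 10 to 13 members rose and the median was 0.30 to 0.40. With clusters joined across gaps up to 2 Mb, the cluster grew to 90 members and its median was 0.15.

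**Figure D3:**
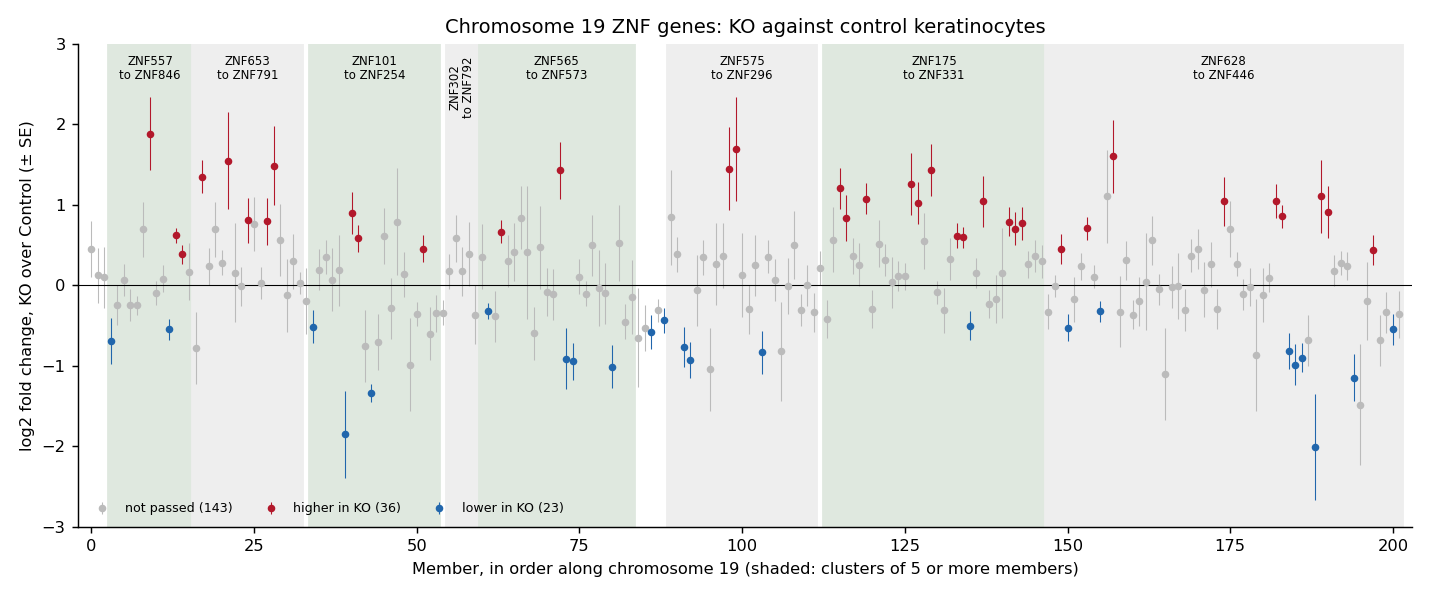
Log2 fold change of KO over Control with its SE for the 202 members in order along chromosome 19; shading marks the 8 clusters, red the 36 members that rose, blue the 23 that fell and grey the 143 that passed in neither direction. The ZNF175 to ZNF331 cluster holds 12 red points and 1 blue point, and the ZNF628 to ZNF446 cluster 9 and 8.

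Within that cluster the members that rose were ZNF649, ZNF613, ZNF614, ZNF880, ZNF528, ZNF701, ZNF28, ZNF468, ZNF816, ZNF845, ZNF525 and ZNF765, all with a KRAB match. ZNF614 (52012765 to 52030240), whose promoter is printed above, had 14.3, 22.1 and 23.5 CPM in KO, 10.2, 9.88 and 11.7 CPM in OE and 9.60, 9.59 and 9.10 CPM in Control libraries. Its KO libraries lay above all 6 others, with a 2.11-fold rise over Control (log2 fold change 1.07 ± 0.19 SE, adjusted p = 5.54e-05). ZNF701 (52555457 to 52587174) had 6.03, 7.62 and 15.6 CPM in KO, 3.43, 4.74 and 3.50 CPM in OE and 3.17, 4.11 and 3.26 CPM in Control libraries, and its log2 fold change over Control was 1.44 ± 0.32 (adjusted p = 0.000639). KO 3 stood above the other KO libraries, and no KO library overlapped with either group. ZNF649, described as a repressor of AP-1 activity, had 9.76, 10.8 and 8.79 CPM in KO, 4.32, 4.84 and 5.62 CPM in OE and 5.57, 3.69 and 3.48 CPM in Control libraries (log2 fold change 1.21 ± 0.25, adjusted p = 0.000332). ZNF845 was at 13.8 to 15.8 CPM in KO and 8.40 to 8.95 CPM in Control libraries, and ZNF528 at 8.68 to 14.9 and 4.58 to 8.54 CPM. ZNF320 was the member that fell, with 10.8, 10.7 and 9.98 CPM in KO against 15.7, 13.1 and 15.8 CPM in Control libraries (log2 fold change -0.50, adjusted p = 0.0257). That call was lost without Control 1, Control 3, KO 2 or KO 3 (adjusted p from 0.0531 to 0.0838). Of the rises, that of ZNF613 was lost without Control 3 (0.0836) or KO 2 (0.08), that of ZNF816 without KO 3 (0.0814) and that of ZNF880 without KO 2 (0.0594), all adjusted p-values. ZNF320 and its neighbour ZNF468, which rose, share 99.5% and 99.2% of their 50-base runs with other annotated genes, so their opposite calls are uncertain. Among the 20 members of the cluster with at most 10% of such shared sequence, 8 rose, where 26.0% of all genes did, and the median was 0.44. That subset was chosen after the data were seen and leaves out ZNF320, and its difference from all genes was not tested.

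**Figure D4:**
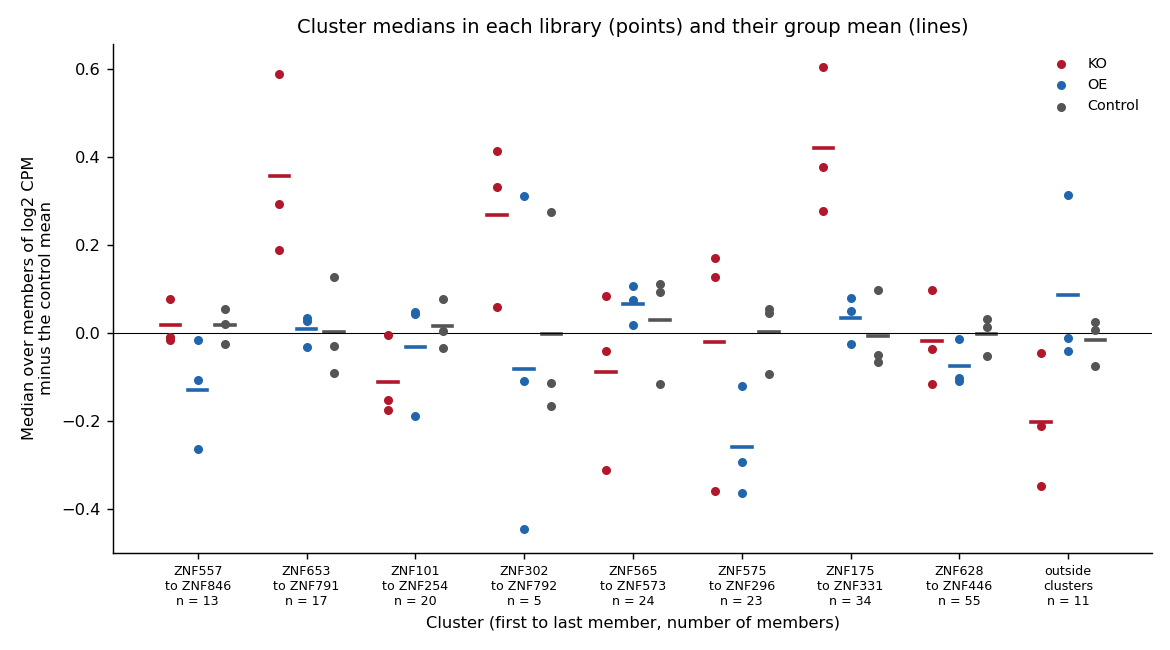
Median over the members of each cluster of log2 CPM minus the Control mean, for each library (points), with the mean of each group's 3 libraries (lines). In the ZNF175 to ZNF331 cluster the KO points, 0.28 to 0.60, lie above all OE and Control points, and in the ZNF575 to ZNF296 cluster the OE points, -0.36 to -0.12, lie below all Control points.

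Of the other clusters, ZNF653 to ZNF791 (11483427 to 12640098) had the next highest share of rises. Of its 17 members 5 rose (29.4%, near the 26.0% of all genes), none fell, and the median was 0.30. The library medians were 0.19, 0.59 and 0.29 in KO, 0.03, 0.03 and -0.03 in OE and 0.13, -0.09 and -0.03 in Control. ZNF627 led it, with 21.8, 19.5 and 22.3 CPM in KO, 8.30, 11.99 and 14.5 CPM in OE and 9.71, 6.11 and 9.10 CPM in Control libraries (log2 fold change over Control 1.35 ± 0.21, adjusted p = 8.92e-06). The largest cluster, ZNF628 to ZNF446 near the chromosome end, had 9 risen and 8 fallen among 55 members (16.4% and 14.5%) and a median of -0.02. ZNF101 to ZNF254, whose members are poorest in GC (median 37.4%), had 3 and 3 among 20 (15% each), with ZNF431 and ZNF66 among the falls. ZNF565 to ZNF573 had 2 and 4 among 24 (8.33% and 16.7%), ZNF575 to ZNF296 2 and 3 among 23 (8.70% and 13%), and ZNF557 to ZNF846 3 and 2 among 13 (23.1% and 15.4%). All these shares lie below the 26.0% and 25.9% of all genes. No member of ZNF302 to ZNF792 passed among 5, and 2 fell among the 11 outside clusters.

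Fold changes in KO cells ran with exon length over all genes, and less so over the members. The rank correlation of the KO over Control fold change with exon length was -0.154 across the 202 members and -0.365 across all 13390 genes, which are not independent replicates. Among the 68 shortest members (up to 4562 bases) 16 rose and 5 fell (23.5% and 7.35%), against 35.4% and 12.4% of all genes of that length, and the medians were 0.14 and 0.21. Among the 66 of middle length 10 rose and 6 fell (15.2% and 9.09%), against 22.3% and 27.5% of all such genes, with medians of 0.16 and -0.06. Among the 68 longest (above 6783 bases) 10 rose and 12 fell (14.7% and 17.6%), against 14.97% and 43.2% of all such genes, with medians of 0.01 and -0.27. Each of these member shares is below that of all genes of the same length, by least for rises among the longest, and the differences were not tested. The shortest members were ZNF524, ZNF428 and ZNF581, at 1441, 1553 and 1635 bases. ZNF581 had 63.0, 56.6 and 46.5 CPM in KO, 25.6, 24.998 and 28.4 CPM in OE and 32.4, 42.6 and 27.0 CPM in Control libraries, without overlap of KO with the others (log2 fold change over Control 0.71 ± 0.14, adjusted p = 0.000214). ZNF428, nearly as short, fell (log2 fold change -0.76 ± 0.25, adjusted p = 0.0134), though not when Control 1 (adjusted p = 0.111) or KO 2 (adjusted p = 0.0761) was left out. ZNF524 rose with an adjusted p of 0.0471; removing the length trend or any of several single libraries moved it above 0.05 (adjusted p = 0.616 with the length trend removed). Of the longest, ZNF431 and ZNF814 fell as given above. ZNF562, at 13022 bases, had 47.4, 54.3 and 54.96 CPM in KO, 39.4, 32.7 and 33.2 CPM in OE and 39.2, 37.2 and 43.5 CPM in Control libraries, and rose over Control (log2 fold change 0.38 ± 0.11, adjusted p = 0.00679).

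**Figure D5:**
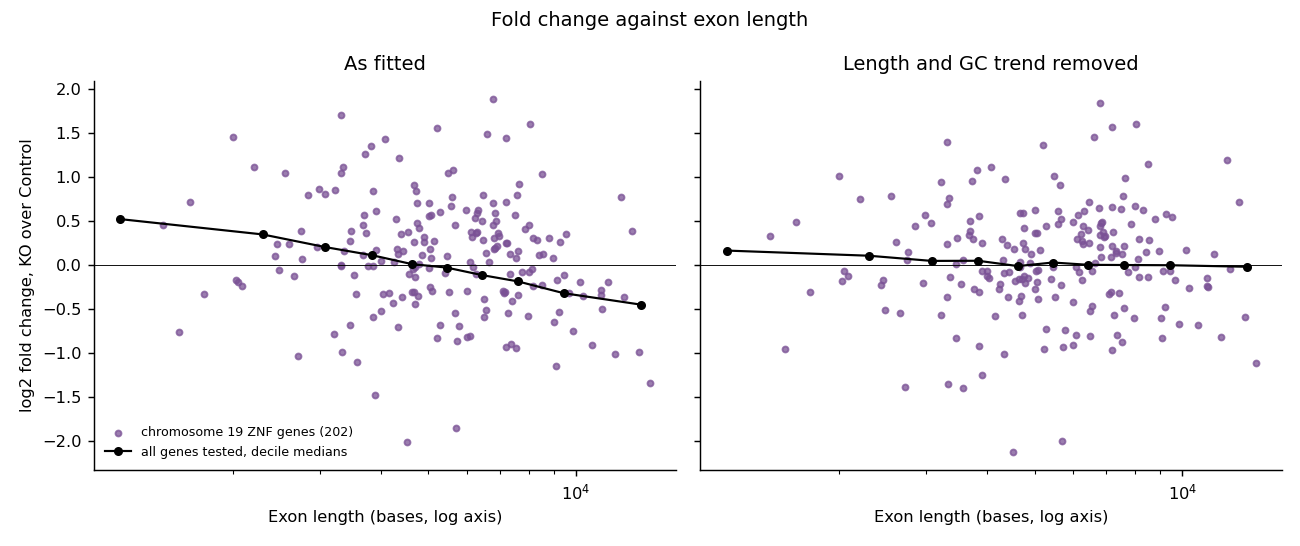
Log2 fold change of KO over Control against exon length (log axis) for the 202 members (points) and for deciles of all genes tested (black line of medians), as fitted (left) and with the length and GC trends of each library removed (right). The black line falls from 0.52 to -0.45 across deciles on the left and stays between -0.02 and 0.16 on the right, while the members scatter on both sides of 0 in both.

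When the trend of each library over exon length and GC content was removed, 28 members rose and 22 fell in KO cells against Control cells, and the median was 0.04. Over all genes the shares were then 25.3% and 20.5%. Among the 68 shortest members 7 then rose and 8 fell (10.3% and 11.8%), against 25.5% and 16.3% of all genes of that length, with a median of -0.07. Among the 68 longest 13 rose and 8 fell (19.1% and 11.8%), against 24.9% and 25.9% of all such genes. The ZNF175 to ZNF331 cluster had a median of 0.28, with 10 members risen (29.4%, near the 25.3% of all genes) and none fallen. ZNF653 to ZNF791 had 2 risen (11.8%, below that share), none fallen and a median of 0.36. ZNF559 (1.84), ZNF701 (1.56), ZNF583 (1.60) and ZNF420 (1.11) still rose, with adjusted p-values of 0.00145, 0.000202, 0.00486 and 0.0122. ZNF222 (adjusted p = 0.113), ZNF814 (adjusted p = 0.0617) and ZNF320 (adjusted p = 0.281) no longer passed. Of the cluster members that rose, ZNF613 (adjusted p = 0.12), ZNF816 (adjusted p = 0.073) and ZNF880 (0.95, adjusted p = 0.0500007, just above the threshold) no longer passed either. Other genes of chromosome 19 then had 213 rises and 86 falls, and zinc finger genes of other chromosomes 16 and 59, with medians of 0.11 and -0.18.

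By protein features, the 156 members with a KRAB match had 30 rises and 17 falls in KO cells over Control cells (19.2% and 10.9%, median 0.15), and the 45 without had 6 and 6 (13.3% each, median -0.08). All of these shares lie below the 26.0% and 25.9% of all genes. After removal of the length and GC trends these medians were 0.05 and -0.02. Among 51 members with up to 9 finger matches 13 rose and 6 fell (25.5% and 11.8%), among 82 with 10 to 14 there were 15 and 8 (18.3% and 9.76%), and among 68 with 15 or more 8 and 9 (11.8% and 13.2%). None of these exceeds the share of all genes. The 22 members with over 55% GC, among them ZNF628 and ZNF837, which have no KRAB match, had 2 rises and 5 falls (9.09% and 22.7%), against 18.1% and 33.7% of all genes over 55% GC. Their median was -0.32, against -0.18 for those genes, and -0.07 after the removal.

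Overexpression of SGPL1 went with few changes in these genes. In OE cells against Control cells 2 members rose and 7 fell, against 9.28% and 9.34% of all genes, and the median was -0.06. Every OE library lay above every Control library in 13 members (17.2% of all genes did) and below in 25 (17.6% of all genes). ZNF525 and ZNF628 rose. ZNF525 had 11.2, 12.2 and 11.8 CPM in OE against 9.50, 6.32 and 7.19 CPM in Control libraries (log2 fold change 0.61 ± 0.20 SE, adjusted p = 0.0299). Its KO libraries, at 13.3, 11.2 and 13.2 CPM, were also above Control (0.71 ± 0.20, adjusted p = 0.00472). ZNF628 had 16.2, 13.3 and 13.7 CPM in OE against 10.5, 10.1 and 7.98 CPM in Control libraries (0.59 ± 0.20, adjusted p = 0.0419). The ZNF628 call was lost without any 1 of the OE or Control libraries (adjusted p from 0.0521 to 0.174), and that of ZNF525 without Control 2, Control 3, OE 2 or OE 3 (0.0565 to 0.145), so that no member rose without Control 2 or without Control 3.

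The 7 members that fell in OE cells were ZNF837, ZNF350, ZNF296, ZNF320, ZNF561, ZNF552 and ZNF468. ZNF350, known as ZBRK1, a BRCA1 partner that represses GADD45A, had 3.32, 4.03 and 4.01 CPM in OE against 8.40, 6.53 and 7.87 CPM in Control libraries. All OE libraries were below all Control libraries, 1.99-fold on average (log2 fold change -0.99 ± 0.23, adjusted p = 0.0035). In KO libraries ZNF350 had 9.40, 9.31 and 10.8 CPM, above every Control library but with an adjusted p of 0.168. ZNF837, a member without a KRAB match, had 0.553, 0.302 and 1.31 CPM in OE against 3.06, 1.69 and 2.36 CPM in Control libraries (-1.61 ± 0.52, adjusted p = 0.032). ZNF296 had 5.20, 5.85 and 5.76 CPM in OE against 13.4, 7.58 and 8.31 CPM in Control libraries (-0.80 ± 0.25, adjusted p = 0.0248), and Control 1 stood above the other Control libraries. The call of ZNF837 was lost without Control 1, Control 3, OE 1 or OE 2, and that of ZNF296 without Control 1, OE 1 or OE 2. ZNF320 (-0.77, adjusted p = 0.00353) and ZNF468 (-0.46, adjusted p = 0.02) also fell, with the shared sequence noted above, and the ZNF468 call was lost without Control 1, OE 2 or OE 3 (adjusted p from 0.0623 to 0.0938).

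ZNF561 and ZNF552 moved in opposite directions in the KO and OE cells, measured against the same Control libraries. ZNF561, which has 8 finger matches and a KRAB match, had 99.4, 112.1 and 116.005 CPM in KO, 46.9, 51.5 and 48.9 CPM in OE and 74.8, 69.8 and 67.6 CPM in Control libraries. The 3 groups did not overlap. It rose in KO cells (log2 fold change over Control 0.62 ± 0.09 SE, adjusted p = 5.00e-06) and fell in OE cells (-0.53 ± 0.09, adjusted p = 0.000261), and KO exceeded OE by 1.15 ± 0.09 (adjusted p = 3.96e-10). ZNF552 had 35.8, 42.3 and 33.0 CPM in KO, 11.6, 15.8 and 15.4 CPM in OE and 20.5, 21.8 and 19.1 CPM in Control libraries, again with no overlap. Its log2 fold change over Control was 0.86 ± 0.14 in KO cells (adjusted p = 2.66e-05) and -0.51 ± 0.15 in OE cells (adjusted p = 0.0182). The OE call was lost without Control 1, Control 2 or OE 1. ZNF468, with uncertain reads, had the same order, 29.2 to 36.2 CPM in KO, 15.1 to 16.7 CPM in OE and 20.7 to 23.4 CPM in Control libraries.

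KO cells set directly against OE cells, in the same fit of all 9 libraries, gave 48 members higher and 25 lower in KO. The fold change compares KO and OE levels, while the Control libraries enter the filter, the scaling and the estimate of spread. Over all genes 28.6% and 29.0% were higher and lower, and the median of the members was 0.13. Among the 83 members under 5 CPM, 19 were higher and 4 lower (22.9% and 4.82%), against 16.7% and 15.4% of all genes of that level. Every KO library lay above every OE library in 54 members (30.5% of all genes) and below in 30 (31.1% of all genes). Removal of the length and GC trends left 37 higher and 20 lower, where 28.1% and 25.2% of all genes passed. ZNF222 (log2 fold change 2.11 ± 0.54 SE, adjusted p = 0.00185), ZNF559, ZNF880 (1.50 ± 0.38, adjusted p = 0.00188), ZNF230 (1.50 ± 0.43, adjusted p = 0.00514, lost without KO 3, adjusted p = 0.0536), ZNF837 (1.42 ± 0.54, adjusted p = 0.027, lost without KO 2, OE 1 or OE 2) and ZNF552 (1.37 ± 0.15, adjusted p = 3.35e-08) were the members higher by most. ZNF350 was 2.57-fold higher in KO than in OE (1.36 ± 0.23, adjusted p = 2.53e-05). ZNF714 was lower by most. It had 1.45, 0.897 and 1.52 CPM in KO, 5.75, 3.73 and 2.92 CPM in OE and 1.75, 2.21 and 2.47 CPM in Control libraries, so KO lay below and OE above every Control library, and the KO over OE difference was -1.68 ± 0.42 (adjusted p = 0.00166). Neither group passed against Control for ZNF714 (adjusted p = 0.167 in KO and 0.0995 in OE). ZNF653 (-1.36, adjusted p = 0.00951), ZNF431 (-1.28, adjusted p = 1.54e-09) and ZNF628 (-0.92, adjusted p = 0.00064) were also lower in KO than in OE. In the ZNF175 to ZNF331 cluster 13 members were higher and 1 lower in KO than in OE.

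Members with described functions were given whatever their result. ZNF91, which represses SVA retroelements in primates, had 18.0, 15.1 and 17.1 CPM in KO, 20.8, 18.9 and 17.2 CPM in OE and 19.9, 23.2 and 20.9 CPM in Control libraries. KO libraries were below all Control libraries, with a log2 fold change of -0.35 ± 0.15 and an adjusted p of 0.0506. ZNF93, the repressor of a LINE-1 subfamily, had no count in any library and is no member. ZNF274, which binds the finger-coding ends of ZNF genes and recruits SETDB1 there, had 20.8, 26.5 and 20.0 CPM in KO, 22.5, 18.9 and 20.1 CPM in OE and 19.6, 16.4 and 19.6 CPM in Control libraries. Its KO over Control value of 0.28 ± 0.15 did not pass (adjusted p = 0.124), but did with the length and GC trends removed (0.62, adjusted p = 0.0012). ZNF331, an imprinted gene at the end of its cluster, had 0.30 ± 0.21 (adjusted p = 0.232). ZNF473, which takes part in histone pre-mRNA processing, was at 6.99 to 9.47 CPM in KO, 7.75 to 9.88 CPM in OE and 6.85 to 7.75 CPM in Control libraries, with overlap of all groups. ZNF175, ZNF224, ZNF304, ZNF160, ZNF83, ZNF134, ZNF154, ZNF671 and ZNF507 did not pass in KO or OE cells against Control. Among them, ZNF671 was called higher and ZNF83 and ZNF507 lower in KO than in OE cells. With length and GC trends removed, the calls of ZNF671 (adjusted p = 0.0692) and ZNF83 (adjusted p = 0.0575) were lost. That of ZNF507 was lost with the length trend alone removed (adjusted p = 0.206). ZNF146, the most abundant member by CPM, fell in KO cells to 75.1, 65.8 and 64.4 CPM, against 73.6, 92.3 and 91.0 CPM in Control libraries (-0.32 ± 0.10, adjusted p = 0.00975), with Control 1 inside the KO range. Without Control 2 its adjusted p was 0.0639, and without Control 3 it was 0.0542.

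Genes of the partners through which KRAB proteins act were called in both directions in KO cells. Of 24 genes of this corepressor and heterochromatin list, 5 rose and 11 fell in KO cells over Control cells (20.8% and 45.8%, against 26.0% and 25.9% of all genes), with a median of -0.24. In OE cells over Control cells 5 rose and 3 fell (20.8% and 12.5%, against 9.28% and 9.34% of all genes), with a median of -0.04. In KO over OE cells 7 were higher and 10 lower (29.2% and 41.7%, against 28.6% and 29.0% of all genes). TRIM28, the corepressor itself, averaged 280.0 CPM in KO, 447.6 CPM in OE and 363 CPM in Control libraries. It fell in KO cells (log2 fold change -0.37, adjusted p = 0.00027) and rose in OE cells (0.30, adjusted p = 0.0059), but the fall in KO cells was -0.06 (adjusted p = 0.55) once length and GC trends were removed. SETDB1, the methyltransferase it recruits, did not pass in either group against Control. DNMT1, the maintenance DNA methyltransferase, averaged 52.3 CPM in KO, 171.2 CPM in OE and 117 CPM in Control libraries (KO over Control -1.16, adjusted p = 1.3e-09; OE over Control 0.55, adjusted p = 0.00011). Its partner UHRF1 averaged 30.0, 129.4 and 65.0 CPM in the same order of groups, and fell in KO cells (-1.12, adjusted p = 1.1e-07) and rose in OE cells (1.00, adjusted p = 1.1e-06). CBX5 and CBX1, which encode HP1 alpha and HP1 beta, fell in KO cells (-0.76 and -0.58), whereas CBX3, for HP1 gamma, rose (0.61), with adjusted p-values of 6.6e-06, 7.5e-05 and 4.2e-06. CHD3 (-1.32), ATRX (-1.30) and MPHOSPH8 of the HUSH complex (-0.90) fell in KO cells too, and SUMO2 (0.69) rose. With length and GC trends removed, 6 of the 24 rose and 8 fell in KO cells over Control cells (25% and 33.3%, against 25.3% and 20.5% of all genes). Several values were then smaller by more than 1.5 times: DNMT1 was at -0.65, CBX5 at -0.39, CHD3 at -0.76, CBX3 at 0.38 and SUMO2 at 0.40, while UHRF1 was at -0.94, ATRX at -0.91, CBX1 at -0.82 and MPHOSPH8 at -1.02. All 9 still passed, with CBX5 at the highest adjusted p (0.0017).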

How the data were processed

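Poly-A selected RNA of N/TERT cells was fragmented, copied with random primers and read from both ends by a sequencing company, per the labels' protocols. The deposited files hold whole-number counts of reads per gene, made by the authors with featureCounts 1.5.2 on Ensembl 101 (GRCh38), per the file headers. Per the submitters' processing notes, the tools were HISAT2 1.03, FastQC, Subread, DESeq2 and featureCounts, the last with the version 0.1.0, unlike in the headers. The command in the headers sets neither strand nor pairing nor a rule for overlapping or repeated matches. Counts of antisense, overlapping and near-identical genes are therefore uncertain. Counts were not normalized.

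Libraries were grouped by the labels into KO, OE and Control (3 each). Counts were tested with edgeR 4.0.16 in R 4.3.3 (filterByExpr, minimum count 10, which left 13390 genes; TMM; quasi-likelihood fit of all 9 libraries with group as the only term; two-sided; common biological coefficient of variation 10.2%). CPM in the text are scaled by TMM; the level rule used unscaled CPM. The length and GC correction used a loess (span 0.3) over log2 exon length and GC content. The loess was fitted to each library's log2 CPM minus the gene's mean over all libraries, and entered as an offset. Fold changes of the members are relative to TMM scaling, and DESeq2 size factors were an alternative. Gene types, GC content and coding sequences came from GENCODE 29 by gene identifier. C2H2 matches were C, 2 or 4 residues, C, 12 residues, H, 3 to 5 residues, H. The KRAB pattern was widened after matches were seen. The members and lists were chosen with earlier results of these data known. Named members were, for each comparison, the 6 largest rises and 6 largest falls among changed members whose libraries did not overlap and whose higher group averaged 2 CPM or more, the 5 of highest mean CPM, the 3 longest and 3 shortest, and 20 genes of described function. Other called members of the leading cluster, ZNF627 and ZNF468 were named after their values were seen. Alternatives included DESeq2 1.42.0, other filters and thresholds, a replicate block and each library left out.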

Additional observations from a re-analysis of the deposited data

How the results depend on the processing

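No pairing of libraries by the numbers in the titles was visible. Deviations from the group means correlated at -0.0772 to 0.066 for equal numbers and -0.0859 to 0.109 for different ones. Such correlations cannot show whether equal numbers mark a shared batch. The replicate block gave 33 members higher and 22 lower for KO over Control, 2 and 8 for OE over Control, and 44 and 24 for KO over OE. With each library left out in turn, KO over Control had 25 to 36 higher, 15 to 24 lower (15 without KO 3) and a median of 0.07 to 0.15; OE over Control 0 to 2 higher, 3 to 8 lower (3 without Control 1, 4 without OE 1 or OE 2) and -0.06 to -0.02; KO over OE 37 to 45 higher, 16 to 25 lower (16 without OE 1 or OE 2) and 0.11 to 0.20. At an adjusted p under 0.01, KO over Control had 11 lower, OE over Control 0 higher and 3 lower, and KO over OE 30 higher and 11 lower, by construction fewer. The share of all genes at that threshold is not given, so these counts are not a result about the members. Among the 132 members with little shared sequence, an alternative chosen after seeing the data, KO over Control had 23 higher and 12 lower, OE over Control 4 lower and KO over OE 15 lower, with fewer genes counted. Over all genes tested, 26.0% were higher and 25.9% lower for KO over Control. For OE over Control 9.34% of all genes were lower, and for KO over OE 29.0%. The KO over Control median of 0.11 was 0.041 without length and GC trends and 0.031 with the replicate block added. With the length trend alone removed, KO over OE had 14 lower and a median of 0.22; the cause was not tested. Clusters joined across 2 Mb gave medians of 0.15, -0.043 and 0.18 for the cluster of ZNF649, in place of 0.35, 0.07 and 0.29, since 90 members were then pooled. Other settings for the family counts and medians stayed within 1.5 times or the spread of libraries. For the calls of named members, 1303 of the recomputed values kept the call, 118 lost it and 0 reversed. Calls gained under another setting, such as that of ZNF274 given above, were not counted. Low counts limit precision: 83 members averaged under 5 CPM, where 3 counts are 0.225 to 0.475 CPM.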
